A study of Homo sapiens with 12 samples.

Results

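The genes described here are 10 contractile and smooth muscle actin genes, taken by their symbols from a table of 32152 genes: ACTA2, ACTG2, ACTBL2, TAGLN, CNN1, MYL9, TPM1, TPM2, TPM4 and CALD1. All 10 were found, each in 1 row. They were taken by symbol and not by a threshold on values, but the list was set with earlier results of these data known. RNA was sequenced in 12 libraries, 2 from each of 6 groups. The groups were parental, ERK5-ko and MEK5DD cells of MDA-MB-231 and of Hs-578T, both established triple-negative breast cancer lines. Values were given as RPKM, reads scaled to the length of the gene model and to the total of the library.

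Cells labelled ERK5-ko had been transfected with CRISPR-Cas9 plasmids whose guides targeted exons of MAPK7, the gene of the kinase ERK5. The MDA-MB-231 line labelled ERK5-ko descended from a single surviving clone, and which of several Hs-578T clones was sequenced was not given in the sources used here. MEK5DD is the name of an always-active mutant of MEK5, the kinase that phosphorylates ERK5, and the label is taken to mean that it was expressed. Parental MDA-MB-231 cells were at passages 29 and 30 and parental Hs-578T cells at passages 83 and 84. The engineered MDA-MB-231 cells were labelled passages 7 to 11 and the engineered Hs-578T cells passages 8 and 9. The study made its ERK5-ko lines from cells at higher passages than these, so their numbers do not share a start with the parental numbers and do not give relative age. For MEK5DD cells the start was not given in the sources used here. Passage, cloning and transfection therefore cannot be told apart from the label, and the comparisons of ERK5-ko and of MEK5DD cells with parental cells share the same parental libraries. All 12 libraries were from cultured lines, with no labelled link to separate cultures, so p-values measure the spread between these libraries.

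Smooth muscle contracts when myosin II, switched on by phosphorylation of its regulatory light chain, pulls on actin filaments that tropomyosins coat and that calponin and caldesmon restrain. The smooth muscle actins ACTA2 and ACTG2, the calponin-like TAGLN and CNN1 are usual markers of smooth muscle, myofibroblasts and myoepithelial cells, and carcinoma cells of mesenchymal form can express them too. Many genes of this group carry CArG boxes, the binding sequence of serum response factor (SRF), which the myocardin-related cofactors switch on when free actin falls.

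Library totals, recovered from the RPKM steps, lay between 20248162 and 27791195 reads. MAPK7 was not lower in either set of cells labelled ERK5-ko, with 13.3 to 14.3 RPKM in parental and 16.3 to 17.8 RPKM in ERK5-ko libraries of MDA-MB-231 (adjusted p = 0.0709), and 13.97 to 15.98 against 17.8 to 18.1 RPKM in Hs-578T (adjusted p = 0.0624). Edited alleles can still be transcribed, so these levels do not check the knockout, and the wording "libraries labelled ERK5-ko" is used below. By Western blot, the study reported ERK5 protein far lower in the ERK5-ko cells of both lines than in parental cells. MAP2K5, the gene of MEK5, rose in both sets of libraries labelled MEK5DD, by 3.77 ± 0.10 (SE) on the log2 scale for MDA-MB-231 and by 0.50 ± 0.10 for Hs-578T. Of the receptors that define triple-negative cells, ESR1 and PGR had mean levels of at most 0.0908 and 0.325 RPKM in any group, while ERBB2 had group means between 31.5 and 55.9 RPKM. Between replicates, the chi-square of the counts per degree of freedom ran from 2.81 to 41.9 and was highest in the Hs-578T MEK5DD and parental pairs.

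Sequence bears on how far the actin reads can be assigned, because actin coding regions are alike. The following 90 bases lie 120 to 31 bases from the end of the coding region, with the start of each line naming the gene. Capitals mark bases that differ from ACTB, which encodes the most abundant cytoplasmic actin of these cells.

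ACTB: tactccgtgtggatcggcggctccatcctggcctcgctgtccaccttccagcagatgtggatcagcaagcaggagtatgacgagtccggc
ACTBL2: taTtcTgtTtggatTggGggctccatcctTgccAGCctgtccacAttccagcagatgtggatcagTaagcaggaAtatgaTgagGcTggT
ACTA2: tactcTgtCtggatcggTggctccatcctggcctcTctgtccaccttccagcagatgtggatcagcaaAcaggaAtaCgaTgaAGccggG
ACTG2: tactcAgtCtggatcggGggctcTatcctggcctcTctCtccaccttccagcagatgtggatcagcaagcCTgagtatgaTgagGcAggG

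ACTBL2 differed from ACTB at 16 of these bases, ACTG2 at 12 and ACTA2 at 11. Over the whole coding region ACTBL2 was 81.5% identical to ACTB, and its longest identical run was 20 bases. None of the 2745 windows of 50 bases in the ACTBL2 transcript came within 2 mismatches of another actin or POTE transcript, against 57 of 1300 windows in ACTA2 (4.38%) and 78 of 2015 in ACTG2 (3.87%). ACTBL2 stays uncertain nonetheless, since how reads with several matches were counted was not given in the sources used here, and ACTB had group means between 4294 and 4966 RPKM. TPM4 shared 11.7% of its 50-base words exactly with other transcripts, above all with AC098614.1, and part of its count may be split with those copies.

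Promoter sequence from RefSeq (GRCh38.p14), 300 bases around each start site, was given for 8 of the 10 genes and 15 start sites. It was searched on both strands for the CArG box (CC, then 6 bases that are each A or T, then GG, the same pattern on either strand). A box stood in 2 of the 15 windows, beside 1.29% of 35097 promoter windows. The stretches of ACTG2 and TPM4 are shown because they hold the box. That of ACTA2 is shown because its second listed start site has 2 boxes with 1 inner G or C, a form that stood in 2 of the 15 windows and in 6.93% of all windows. CALD1 holds the other box of that form, at start site 3 of its 4. TAGLN and MYL9 had no promoter entry and were not searched. Capitals mark the boxes, and no match in the other members searched says only that these letters are not in the window.

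ACTG2, chr2:73892883-73892959, plus strand: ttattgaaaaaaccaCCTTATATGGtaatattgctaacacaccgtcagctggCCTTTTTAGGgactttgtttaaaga
ACTA2, chr10:88952820-88952909, minus strand: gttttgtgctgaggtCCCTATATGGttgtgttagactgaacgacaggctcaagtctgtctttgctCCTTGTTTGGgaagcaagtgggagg
TPM4, chr19:16067350-16067389, plus strand: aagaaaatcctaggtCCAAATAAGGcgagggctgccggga
CALD1, chr7:134711458-134711497, plus strand: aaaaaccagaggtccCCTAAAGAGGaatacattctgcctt

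The ACTG2 boxes began 110 and 73 bases before the start site, those of ACTA2 121 and 71 bases before it, that of TPM4 173 bases before it and that of CALD1 26 bases before it. A match is a description of letters and not a measured binding site.

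The 2 parental lines differed in every member. All 10 genes were lower in parental MDA-MB-231 than in parental Hs-578T cells at an adjusted p under 0.05 (limma). ACTG2 and CNN1 passed the filter of 0.5 RPKM in 2 libraries only through Hs-578T, where they are higher. Their calls between the lines, here and in the differences of response, are therefore no independent support. Whether ranges overlap is given here and below as a description only. With 2 against 2 libraries, ranges lie fully apart in a share of 0.333 of label orders, and the share over all genes was not counted. At that threshold 77.4% of 13737 tested genes differed between the lines and 31.3% were lower and 46% higher in MDA-MB-231. In bulk RNA, fewer cells of a type and less RNA per cell cannot be told apart. The median of all genes was shifted by 0.19 on the log2 scale towards MDA-MB-231 in this comparison alone, and by -0.02 after median-ratio scaling, with all 10 members lower under both.

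ACTG2, TPM2, ACTA2 and TAGLN had the widest gaps between the parental lines among the members, with log2 differences of -5.53 for TPM2, -5.36 for ACTA2 and -5.29 for TAGLN. ACTA2 (ENSG00000107796.12, chr10:88935074-88991390) had 2.68 and 3.16 RPKM in the parental MDA-MB-231 libraries and 157 and 124 RPKM in those of Hs-578T. ACTG2 (ENSG00000163017.13, chr2:73892314-73919865) had 0 and 1 read in MDA-MB-231 against 94.5 and 60.7 RPKM in Hs-578T, at least 763-fold higher when set against 3 reads per library. TAGLN (ENSG00000149591.16, chr11:117199321-117204782) had 3.62 and 4.11 RPKM against 201 and 143 RPKM. TPM2, a tropomyosin, had 11.7 and 14.9 RPKM against 669.9 and 603 RPKM, and its mean was 47.8 times lower in MDA-MB-231. Both Hs-578T libraries thus stood far above both MDA-MB-231 libraries in these 4 genes.

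TPM4, CALD1, MYL9 and TPM1 were the members with high levels in both lines. In parental Hs-578T cells the order of mean levels was TPM4 at 2702 RPKM, CALD1 at 877, TPM1 at 781, TPM2 at 636, MYL9 at 450.4, TAGLN at 172, ACTA2 at 140.3, ACTG2 at 77.6, CNN1 at 1.397 and ACTBL2 at 0.783 RPKM. The ranges of CALD1 and TPM1 overlapped, as did those of TAGLN and ACTA2, while the other neighbours in this order did not overlap. In parental MDA-MB-231 cells TPM4 again led, at 1185 RPKM, followed by CALD1 at 145, MYL9 at 114, TPM1 at 83.4 and TPM2 at 13.3 RPKM. RPKM divides by a gene model that for TPM4 was 904 bases long, shorter than its longest transcript of 3106 bases, which bears on levels compared between genes but not on comparisons between libraries.

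**Figure D1:**
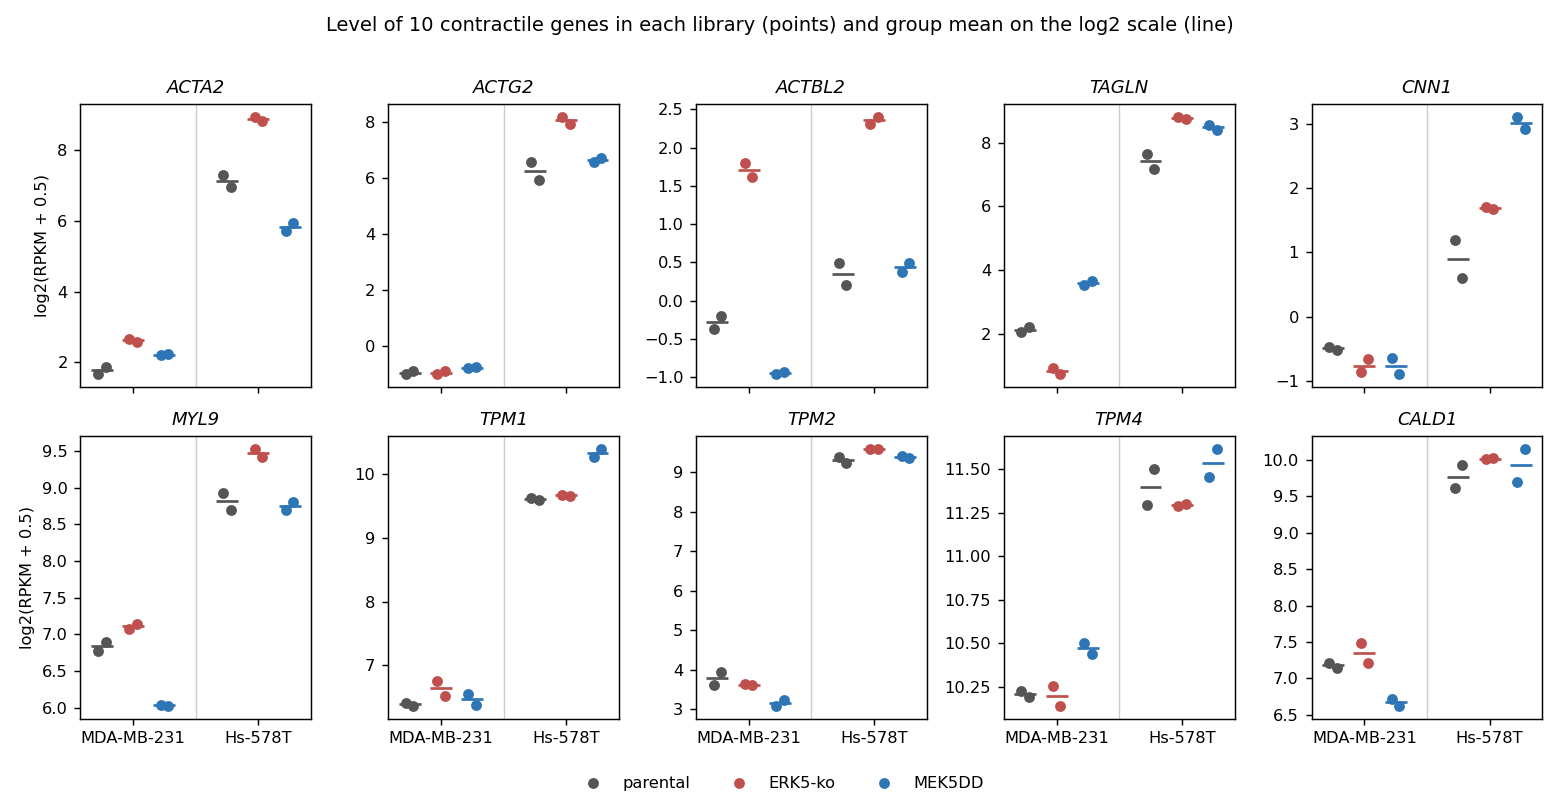
Level of each of the 10 genes as log2(RPKM + 0.5) on the vertical axis, with 1 point per library, colour for parental, ERK5-ko or MEK5DD, and a line for the group mean of these log values (each panel has its own scale). The Hs-578T libraries lie above the MDA-MB-231 libraries of the same label in all 10 panels. ACTBL2 is high in the ERK5-ko libraries of both lines, and TAGLN is low in the ERK5-ko libraries of MDA-MB-231 and high in those of Hs-578T.

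The question of the ERK5-ko comparison was how RNA levels differ when MAPK7 has been edited. In Hs-578T libraries labelled ERK5-ko, 6 of the 10 members rose compared to parental controls and none fell, and all 6 also passed a fold of 1.5. Over all genes tested, 39.4% passed in either direction, 19.7% were higher and as many lower, and 12.6% passed with a fold above 1.5 or below 0.5. The median log2 fold change of the members was 0.73, beside 0.01 over all genes. With the ERK5-ko label in MDA-MB-231, 3 of the 10 passed, 2 higher and 1 lower, where 17.3% of all genes passed, 6.91% higher and 10.4% lower. These 3 also passed the fold threshold, which 3.87% of all genes passed. The read floor set aside a member only where every library of both groups held 3 reads or fewer. The median log2 fold change was 0.17 over the 9 members above this floor, beside -0.04 over all genes. The order of the all-gene shares of the lines depended on pooling the spread over both lines. With each line fitted alone, 4065 of 13737 genes passed for MDA-MB-231 and 3043 for Hs-578T. MYL9 then also passed for MDA-MB-231 (adjusted p = 0.0235), which made 4 members.

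ACTA2, the alpha smooth muscle actin, rose in both lines. In Hs-578T it went from 157 and 124 RPKM in parental to 495 and 457 RPKM in ERK5-ko libraries, a rise of 1.77 ± 0.13 (SE) on the log2 scale (adjusted p = 1.70e-06). The MDA-MB-231 values went from 2.68 and 3.16 RPKM to 5.86 and 5.50 RPKM (0.86 ± 0.13, adjusted p = 0.000932). The groups did not overlap in either line. FAS and STAMBPL1 overlap ACTA2 on the opposite strand and did not move with it: mean FAS in Hs-578T was 32.8 RPKM in parental and 19.0 RPKM in ERK5-ko libraries, and STAMBPL1 7.13 and 5.09 RPKM.

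ACTG2, the gamma smooth muscle actin of gut and bladder, whose row shares 84 bases with the microRNA entry AC073046.1, rose in Hs-578T from 94.5 and 60.7 RPKM to 294 and 248 RPKM, a rise of 1.83 ± 0.17 (adjusted p = 1.52e-05). Both ERK5-ko libraries were above both parental libraries. AC073046.1 lies on the same strand and moved with ACTG2. In Hs-578T its mean was 6.28 RPKM in parental, 33.9 RPKM in ERK5-ko and 12.4 RPKM in MEK5DD libraries. Whether the 2 rows count the same reads was not tested. In MDA-MB-231 the parental and ERK5-ko libraries held 0 or 1 ACTG2 read each, so no fold change could be had there.

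ACTBL2 (ENSG00000169067.3, chr5:57480016-57482809), an actin close to the cytoplasmic beta form, rose in both lines. In MDA-MB-231 it rose from 0.275 and 0.374 RPKM to 2.98 and 2.55 RPKM (1.99 ± 0.13, adjusted p = 2.57e-06), which was 48 reads in the 2 parental and 366 in the 2 ERK5-ko libraries. In Hs-578T it rose from 0.909 and 0.657 RPKM to 4.45 and 4.79 RPKM (2.003 ± 0.13, adjusted p = 7.15e-07). Neither line showed overlap. The difference between the lines was -0.02 with a 95% interval from -0.41 to 0.38 on the log2(RPKM + 0.5) scale, but the ratio of mean RPKM was 8.53 for MDA-MB-231 and 5.90 for Hs-578T, and the difference was 0.33 with a pseudocount of 0.1 and 0.51 with voom on reads, neither of which passed. Whether reads of other actins were counted as ACTBL2 was not tested. ACTB differed by 0.17 on the log2 scale for MDA-MB-231 and by 0.01 for Hs-578T, and ACTG1 by 0.34 and -0.04, none of which passed, while ACTA2 rose in both lines.

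TAGLN, the actin-binding transgelin, moved in opposite directions in the 2 lines. In Hs-578T it rose from 201 and 143 RPKM to 449.9 and 424 RPKM, a rise of 1.36 ± 0.15 (adjusted p = 3.50e-05). The MDA-MB-231 values fell from 3.62 and 4.11 RPKM to 1.39 and 1.17 RPKM (-1.30 ± 0.15, adjusted p = 0.000181), on 123 and 157 reads against 43 and 40. The groups of each line were apart. PCSK7 shares 446 bases with TAGLN on the opposite strand and had 14.2 and 16.1 RPKM on average in parental and ERK5-ko Hs-578T libraries.

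CNN1 (ENSG00000130176.7, chr19:11538717-11550323), the basic calponin of smooth muscle, was scarce. It rose in Hs-578T from 1.78 and 1.01 RPKM to 2.77 and 2.68 RPKM (0.80 ± 0.18, adjusted p = 0.00398), on 37 and 19 reads against 66 and 59. In MDA-MB-231 it had 10 reads in the parental and 4 in the ERK5-ko libraries, a ratio of 0.442 with a 95% counting interval from 0.101 to 1.53, which does not resolve a change. Counting intervals cover counting error only.

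MYL9 (ENSG00000101335.9, chr20:36541484-36551447), a regulatory light chain of smooth muscle and non-muscle myosin II, rose in Hs-578T from 486 and 414 RPKM to 739 and 683 RPKM (0.66 ± 0.10, adjusted p = 0.000383). In MDA-MB-231 its values were 109 and 119 RPKM in parental and 134 and 141 RPKM in ERK5-ko libraries, which differed by 0.27 ± 0.10 and did not pass (adjusted p = 0.0856). The groups did not overlap there either. The adjusted p was 0.0494 with a replicate block, which uses the shared replicate numbers as pairs, and 0.0398 after median-ratio scaling. It was 0.0235 with MDA-MB-231 fitted alone.

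The tropomyosins and caldesmon moved little with the ERK5-ko label. TPM1 (ENSG00000140416.19, chr15:63042632-63071915) had 84.8 and 82.0 RPKM in parental and 107 and 91.5 RPKM in ERK5-ko MDA-MB-231 libraries (0.25 ± 0.10, adjusted p = 0.123, or 0.0465 with a replicate block and 0.0478 after median-ratio scaling). With MYL9 and TPM1 the count of members past the threshold in MDA-MB-231 became 5, of which 4 were higher and 1 lower, under the block and under that scaling. TPM2 (ENSG00000198467.13, chr9:35681992-35691020) had 669.9 and 603 RPKM in parental and 767 and 774 RPKM in ERK5-ko Hs-578T libraries (0.28 ± 0.11, adjusted p = 0.0687, or 0.028 with a replicate block). TPM4 (ENSG00000167460.14, chr19:16067021-16103005), the most abundant member, had 2514 and 2890.1 RPKM against 2495 and 2524 RPKM in Hs-578T, and these groups overlapped. CALD1 (ENSG00000122786.19, chr7:134744252-134970728), the caldesmon gene, had 781 and 974 RPKM against 1028 and 1039 RPKM in Hs-578T (0.25 ± 0.16, adjusted p = 0.234). In MDA-MB-231 the log2 fold changes of TPM2, TPM4 and CALD1 were -0.16, -0.01 and 0.17, and these 3 did not pass.

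**Figure D2:**
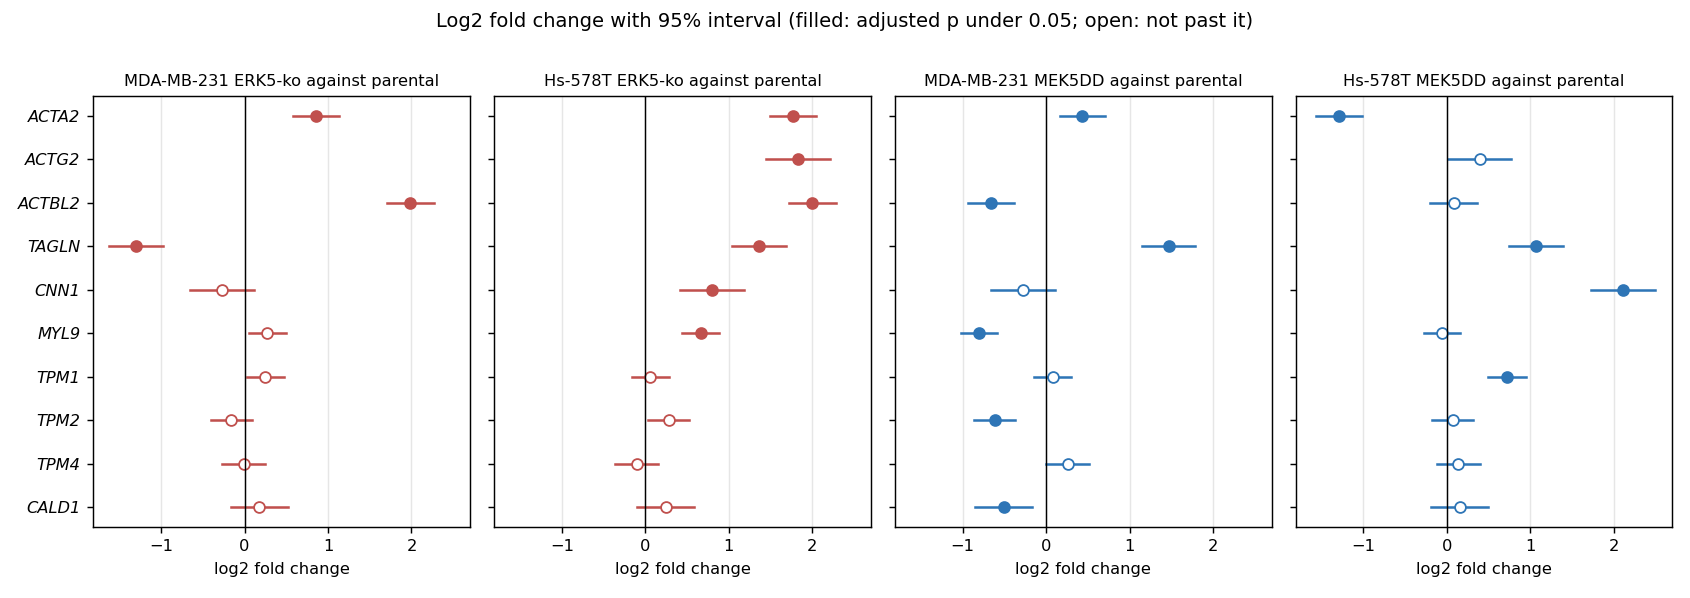
Log2 fold change on the horizontal axis against the parental controls of the same line, with 95% intervals, for the 10 genes in 4 comparisons; filled points passed an adjusted p of 0.05 and open points did not. ACTG2 in MDA-MB-231 is left out because both groups were at 3 reads or fewer. ACTA2 lies at 0.86 and 1.77 in the ERK5-ko panels and at 0.44 and -1.30 in the MEK5DD panels.

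The MEK5DD comparison set libraries labelled MEK5DD against the same parental libraries. MAP2K5 rose far less in those of Hs-578T than in those of MDA-MB-231, as given above. The part of this gap in differences between the lines was not tested. In MDA-MB-231, 6 of the 10 members passed, 2 higher and 4 lower, where 41.3% of all genes passed, 17.5% higher and 23.8% lower. TAGLN was the 1 member of these 6 whose fitted fold also passed the threshold of above 1.5 or below 0.5, which 13.9% of all genes passed. ACTBL2 missed it on the log2(RPKM + 0.5) scale, with a fitted fold of 0.632, although its ratio of reads was 0.0634. In Hs-578T, 4 of the 10 passed, 3 higher and 1 lower, where 23.4% of all genes passed, 6.44% higher and 17% lower. These 4 also passed the fold threshold, which 4.38% of all genes did. The median log2 fold change of the members was -0.28 over the 9 above the floor for MDA-MB-231 and 0.15 for Hs-578T, beside -0.01 and -0.08 over all genes. The 9 hold CNN1 and ACTBL2, which had 3 reads or fewer in each MDA-MB-231 MEK5DD library. With each line fitted alone, 7266 of 13737 genes passed for MDA-MB-231 and 900 for Hs-578T.

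ACTA2 fell in Hs-578T libraries labelled MEK5DD, from 157 and 124 RPKM to 52.5 and 60.6 RPKM (-1.30 ± 0.13, adjusted p = 4.86e-05). In MDA-MB-231 it rose from 2.68 and 3.16 RPKM to 4.06 and 4.16 RPKM (0.44 ± 0.13, adjusted p = 0.0156). This rise in MDA-MB-231 did not pass when parental replicate 1, MEK5DD replicate 1 or MEK5DD replicate 2 was left out (adjusted p = 0.137, 0.0635 and 0.0817), nor with voom on the recovered reads (adjusted p = 0.0963). The groups did not overlap in either line.

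ACTG2 in Hs-578T had 94.5 and 105 RPKM in MEK5DD libraries against 94.5 and 60.7 RPKM in parental libraries, and the groups overlapped. Its log2 fold change of 0.39 ± 0.17 did not pass (adjusted p = 0.131). Without parental replicate 1 it was 0.71 with an adjusted p of 0.00726. In MDA-MB-231 the MEK5DD libraries held 2 and 3 reads.

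ACTBL2 in MDA-MB-231 held 1 and 2 reads in the MEK5DD libraries and 19 and 29 in the parental ones, a ratio of 0.0634 with a 95% counting interval from 0.0126 to 0.197. On the log2(RPKM + 0.5) scale, which understates changes of low genes, it fell by 0.66 (SE 0.13, adjusted p = 0.00141). In Hs-578T it had 0.909 and 0.657 RPKM in parental and 0.796 and 0.907 RPKM in MEK5DD libraries, and the groups overlapped. Its level was thus far lower with MEK5DD in one line, with a difference between lines of -0.74 ± 0.18 (adjusted p = 0.00684).

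TAGLN rose with the MEK5DD label in both lines. In MDA-MB-231 it went from 3.62 and 4.11 RPKM to 11.1 and 12.1 RPKM (1.47 ± 0.15, adjusted p = 1.06e-05). In Hs-578T it went from 201 and 143 RPKM to 380.03 and 334 RPKM (1.07 ± 0.15, adjusted p = 0.000514). The difference between the lines, 0.40 ± 0.21, did not pass (adjusted p = 0.148), its 95% interval ran from -0.05 to 0.85, and it passed without Hs-578T parental replicate 2 (0.65, adjusted p = 0.0112).

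CNN1 had the largest change of any member in Hs-578T libraries labelled MEK5DD, from 1.78 and 1.01 RPKM to 8.10 and 7.03 RPKM (2.12 ± 0.18, adjusted p = 1.68e-05). Reads numbered 37 and 19 in the parental and 149 and 131 in the MEK5DD libraries. In MDA-MB-231 it had 10 reads in the parental and 4 in the MEK5DD libraries, and the counting interval of the ratio, 0.0928 to 1.41, did not resolve a change.

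MYL9 fell in MDA-MB-231 libraries labelled MEK5DD, from 109 and 119 RPKM to 65.3 and 64.6 RPKM (-0.81 ± 0.10, adjusted p = 6.10e-05). In Hs-578T its values overlapped, at 486 and 414 RPKM against 415 and 447 RPKM. Of 13 tested regulators of light chain phosphorylation, 1 rose and 3 fell in the same MDA-MB-231 libraries. Over all genes 17.5% were higher and 23.8% lower. MYLK, a kinase that phosphorylates this light chain, fell by 1.25 (SE 0.19). RHOB (-0.69 ± 0.15) and PPP1CB (-0.40 ± 0.08) fell too, and DAPK3 rose (0.48 ± 0.12).

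TPM1 rose in Hs-578T from 787 and 776 RPKM to 1228 and 1350.0 RPKM (0.72 ± 0.10, adjusted p = 0.000639), while in MDA-MB-231 its groups overlapped. TPM2 fell in MDA-MB-231 from 11.7 and 14.9 RPKM to 8.005 and 8.94 RPKM (-0.61 ± 0.11, adjusted p = 0.00098), while in Hs-578T its groups overlapped. TPM4 had 1198 and 1171 RPKM in parental and 1451 and 1388 RPKM in MEK5DD libraries of MDA-MB-231, with no overlap. Its log2 fold change of 0.26 ± 0.12 did not pass (adjusted p = 0.0999), and it passed with a replicate block (adjusted p = 0.0473). CALD1 fell in MDA-MB-231 from 148 and 141 RPKM to 105 and 98.1 RPKM (-0.51 ± 0.16, adjusted p = 0.0217). That call was lost when any 1 of the 4 libraries was left out, with adjusted p of 0.114 and 0.0716 without parental replicates 1 and 2, and 0.0666 and 0.124 without MEK5DD replicates 1 and 2.

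Set directly against each other, ERK5-ko and MEK5DD libraries differed in 6 members in each line, where 55% of all genes passed for MDA-MB-231 (27.1% higher in ERK5-ko, 27.9% lower) and 50% for Hs-578T (30.7% higher, 19.2% lower). In MDA-MB-231 ACTA2, ACTBL2, MYL9, TPM2 and CALD1 were higher and TAGLN was lower in the ERK5-ko libraries. ACTBL2 had 366 reads in the ERK5-ko and 3 in the MEK5DD libraries, a ratio of 133 with a 95% counting interval from 45.1 to 647. TAGLN was 2.77 ± 0.15 lower on the log2 scale, a log2 fold change of -2.77 (adjusted p = 3.41e-08). ACTA2 had 5.86 and 5.50 RPKM against 4.06 and 4.16 RPKM (0.42 ± 0.13, adjusted p = 0.0135), a call lost without ERK5-ko replicate 1 (adjusted p = 0.0793), MEK5DD replicate 1 (0.0694) or MEK5DD replicate 2 (0.0519). TPM2 (0.46 ± 0.11, adjusted p = 0.00443) did not pass without MEK5DD replicate 1 (adjusted p = 0.0516). The gap in TPM4, -0.27 (adjusted p = 0.0702), passed with a replicate block (adjusted p = 0.0318). In Hs-578T ACTA2, ACTG2, ACTBL2 and MYL9 were higher and CNN1 and TPM1 lower in the ERK5-ko libraries. ACTA2 showed the widest gap, 495 and 457 RPKM against 52.5 and 60.6 RPKM (3.06 ± 0.13, adjusted p = 1.29e-08), and CNN1 lay at -1.32 ± 0.18 (adjusted p = 9.50e-05). TAGLN at 449.9 and 424 RPKM against 380.03 and 334 RPKM did not overlap and did not pass (adjusted p = 0.117, or 0.0466 with a replicate block).

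**Figure D3:**
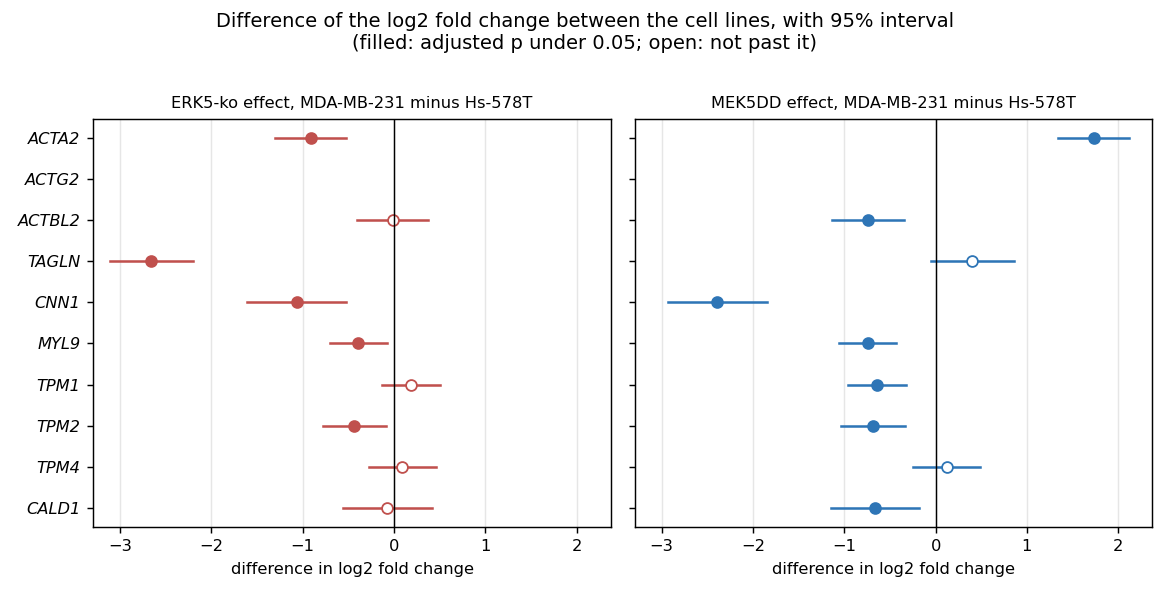
Difference of the log2 fold change between the lines (MDA-MB-231 minus Hs-578T) on the horizontal axis with 95% intervals, for the ERK5-ko label (left) and the MEK5DD label (right), both against parental controls; filled points passed an adjusted p of 0.05. ACTG2 is left out because its MDA-MB-231 libraries held 3 reads or fewer. TAGLN lies at -2.66 on the left, and ACTA2 at 1.73 and CNN1 at -2.39 on the right.

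The contrast of contrasts asked whether the lines differed in their response. For ERK5-ko, 6 of the 10 members differed, all with the smaller or lower log2 fold change in MDA-MB-231, where 39.8% of all genes differed, 18.3% higher and 21.5% lower. Of these 6, 3 also passed the fold threshold, as did 20.7% of all genes. One of the 6 was ACTG2, whose MDA-MB-231 libraries held 1 read or none. TAGLN differed by -2.66 ± 0.21 (adjusted p = 5.30e-06), CNN1 by -1.07 ± 0.25 (adjusted p = 0.00567) and ACTA2 by -0.91 ± 0.18 (adjusted p = 0.00207). CNN1 held 10 parental and 4 ERK5-ko reads in MDA-MB-231, which did not resolve a change there. The size of its difference depends on the number added before logs. MYL9 and TPM2 were close to the threshold (adjusted p = 0.0471 and 0.0473). Both were lost, which left 4 members, with median-ratio scaling (adjusted p = 0.121 and 0.110), with no filter (0.0544 and 0.0621) and with genes of every type (0.0517 and 0.0568), and voom also left 4, without ACTG2 (0.329) and TPM2 (0.0541). MYL9 was lost when any library but Hs-578T parental replicate 1 was left out of the 8 compared (adjusted p 0.0662 to 0.167), and TPM2 when any but parental replicate 1 of either line was (0.0954 to 0.208). For MEK5DD, 7 of the 10 differed, 1 higher and 6 lower in MDA-MB-231, where 39.6% of all genes differed, 21.3% higher and 18.2% lower. Of these 7, 2 also passed the fold threshold, as did 22.2% of all genes. CALD1 (-0.66 ± 0.22, adjusted p = 0.0329) was lost without any 1 of the 4 MDA-MB-231 libraries, Hs-578T parental replicate 1 or Hs-578T MEK5DD replicate 2 (adjusted p 0.0672 to 0.108). ACTA2 was the member that was higher, by 1.73 ± 0.18 (adjusted p = 2.24e-05), having risen in one line and fallen in the other.

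The other genes of the actomyosin system were counted in 7 lists, 58 genes in all, of which 50 were tested. In Hs-578T libraries labelled ERK5-ko, 18 of the 50 rose and 5 fell (46%), beside 39.4% of all genes, with a median log2 fold change of 0.28. With that label in MDA-MB-231, 1 rose and 3 fell (8%), beside 17.3%. With MEK5DD, 9 rose and 6 fell in MDA-MB-231 (30%), beside 41.3%, and 5 rose and 1 fell in Hs-578T (12%), beside 23.4%.

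The rises in Hs-578T libraries labelled ERK5-ko fell mainly in 3 lists. Over all genes tested, 19.7% were higher in this comparison. Of 9 late smooth muscle genes 6 were tested and 5 of these rose, namely KCNMB1, SYNPO2, SMTN, LMOD1 and MYOCD. MYOCD also stands among the cofactors of SRF. KCNMB1, a subunit of the smooth muscle BK potassium channel, had 10 to 12 reads in the parental and 337 to 384 in the ERK5-ko libraries (2.86 ± 0.09, adjusted p = 5.53e-09), and it had 0 reads in every MDA-MB-231 library. KCNMB1 passed the filter of 0.5 RPKM in 2 libraries only through the Hs-578T ERK5-ko libraries, where it is high. Its rise is therefore no independent support for the list. SYNPO2, an actin-binding protein of the Z-disc, rose from a mean of 2.94 to 8.79 RPKM. MYH11, the smooth muscle myosin heavy chain, and DES, the muscle intermediate filament, had mean levels of at most 0.023 and 0.334 RPKM in any group. Of 13 crosslinkers and adhesion plaque proteins 7 rose and none fell, among them PDLIM5 (1.32 ± 0.12, adjusted p = 1.32e-05). Of 7 genes of SRF and its cofactors 3 rose: SRF from a mean of 13.8 to 24.0 RPKM (0.77 ± 0.14, adjusted p = 0.00143), MKL1 (0.51 ± 0.12) and MYOCD (0.60 ± 0.20, adjusted p = 0.0306).

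The remaining lists did not move as one. ACTB and ACTG1 did not pass in either ERK5-ko comparison, and ACTG1 rose by 0.46 ± 0.13 in MDA-MB-231 libraries labelled MEK5DD. Of 13 regulators of light chain phosphorylation 4 rose and 3 fell in Hs-578T ERK5-ko libraries, with ROCK1 (0.79 ± 0.22) among the first and RHOB (-0.90 ± 0.15) and RHOC (-0.57 ± 0.15) among the second. In MDA-MB-231 the smoothelin gene SMTN fell with ERK5-ko (-0.96 ± 0.11, adjusted p = 0.00026) and rose with MEK5DD (1.11 ± 0.11, adjusted p = 1.44e-05), and the alpha-actinin gene ACTN1 rose with MEK5DD (1.02 ± 0.12, adjusted p = 4.81e-05). Of 6 tested myosin II chains 2 fell in Hs-578T ERK5-ko libraries, MYL12A and MYL6B, while MYL9 rose there. Of the calponin, transgelin and tropomyosin relatives CNN3 rose in MDA-MB-231 ERK5-ko libraries (0.43 ± 0.11), and CNN2 and TPM3 rose with MEK5DD there (0.66 ± 0.10 and 0.56 ± 0.09).

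**Figure D4:**
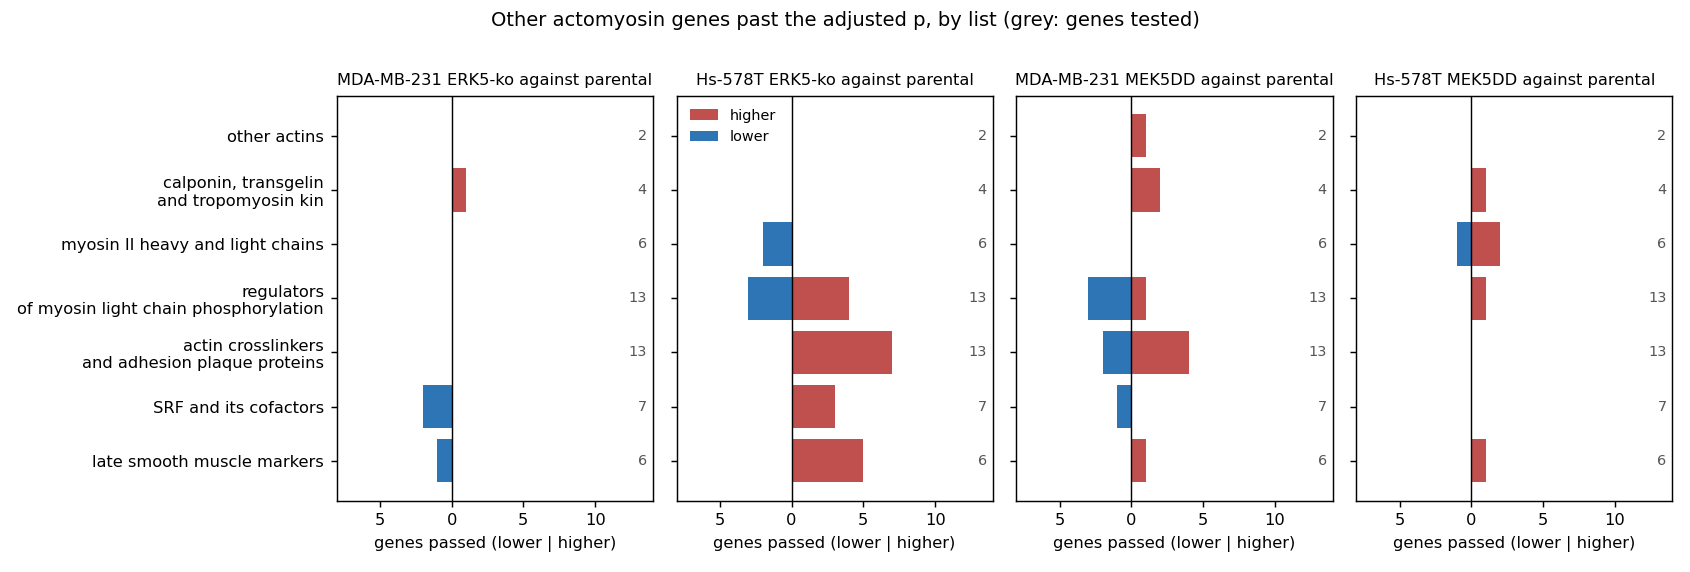
Number of genes per list that passed an adjusted p of 0.05, to the right if higher and to the left if lower than in parental controls, in 4 comparisons, with the number tested in grey. In Hs-578T ERK5-ko libraries 7 of 13 crosslinkers and adhesion plaque proteins and 5 of 6 tested late smooth muscle genes were higher, beside 19.7% of all genes. Of these 5, KCNMB1 passed the filter only through those libraries and is no independent support. MYOCD is counted in the SRF list as well.

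Cell type markers moved with some of these results. The 5 smooth muscle markers MYH11, DES, LMOD1, MYOCD and SMTN summed to 26.5 to 29.5 RPKM in parental, 40.1 to 46.0 RPKM in ERK5-ko and 25.5 to 31.8 RPKM in MEK5DD libraries of Hs-578T, of which SMTN made up most, and the 3 tested markers rose with ERK5-ko. These 5 markers also stand in the list of late smooth muscle genes above, so they are not a separate result. In MDA-MB-231 they summed to 39.9 to 47.5 RPKM in parental, 21.8 to 22.6 RPKM in ERK5-ko and 91.5 to 97.3 RPKM in MEK5DD libraries, a sum again mostly of SMTN, which fell and rose there in the same directions as TAGLN. The 4 basal or myoepithelial markers KRT5, KRT14, KRT17 and TP63 summed to 38.6 to 41.2 RPKM in parental, 7.25 to 8.82 RPKM in ERK5-ko and 129 to 159 RPKM in MEK5DD libraries of Hs-578T. Of the 3 tested, 1 fell with ERK5-ko (KRT14), and with MEK5DD 2 rose (KRT14 and KRT17) and 1 fell (TP63). The 5 mesenchymal markers VIM, FN1, COL1A1, PDGFRB and THY1 summed to 17174 to 21103 RPKM in parental and 13376 to 14489.6 RPKM in ERK5-ko libraries of Hs-578T, where COL1A1 fell and the other 4 did not pass. In MDA-MB-231 they summed to 1674 to 1823 RPKM in parental and 3497 to 3575 RPKM in MEK5DD libraries, where VIM and FN1 rose, COL1A1 and PDGFRB fell and THY1 did not pass. The 4 luminal markers KRT8, KRT18, EPCAM and CDH1 summed to 1052 to 1148 RPKM in parental and 1843 to 1859.5 RPKM in ERK5-ko libraries of MDA-MB-231, and to 189 to 264 RPKM and 577 to 626 RPKM in those of Hs-578T. With ERK5-ko 3 of these 4 rose in MDA-MB-231, while for Hs-578T KRT18 and CDH1 rose, KRT8 fell and EPCAM did not pass. The part of these markers in the results for the 10 genes was not tested.

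Genes whose pattern was most like that of ACTA2, TAGLN or ACTBL2 were ranked by Pearson's r of log2(RPKM + 0.5), centred within each line, over the 12 libraries, as a description. FAM19A2 (r = 0.982), EPB41L4B (0.976) and ERRFI1 (0.970) were most like ACTA2. CLPB (0.988), RNF182 (0.977) and SMAGP (0.968) were most like TAGLN. GPRC5A (0.971), LEPROTL1 (0.967) and MPZL3 (0.961) were most like ACTBL2. The libraries of a group share their label and cell source, so these values rest on 6 groups. GPRC5A, a membrane receptor, had mean levels of 87.5, 223 and 64.6 RPKM in parental, ERK5-ko and MEK5DD libraries of MDA-MB-231, and 10.7, 31.1 and 8.53 RPKM in those of Hs-578T.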

How the data were processed

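RNA of 2 cell lines was sequenced in 12 libraries, and the authors deposited 1 table of RPKM values (reads scaled to gene model length and library total). The submitters' processing notes name bcl2fastq, Trimmomatic 0.32, TopHat2 2.1.1, R 3.3.1, DESeq2 1.12.4 and GRCh38. The counting tool, its strand setting and the annotation were not given in the sources used here, and the kit was a stranded mRNA kit. The members and gene lists were chosen with earlier results of these data known.

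For every gene, values were whole multiples of 1 read (100.0% of 32152 genes, tolerance 1e-06), which gave reads and totals. Totals lay between 20248162 and 27791195, and 92.0% to 94.5% of them fell on listed genes. Groups were the combinations of line and label. The 13737 coding genes that reached 0.5 RPKM in 2 libraries were modelled on the log2(RPKM + 0.5) scale by limma 3.58.1 (R 4.3.3), with 1 mean per group and 6 residual degrees of freedom. Benjamini-Hochberg adjustment was done separately for the 9 comparisons, and a gene passed at an adjusted p under 0.05. In data simulated for MDA-MB-231 ERK5-ko against parental over 13737 genes, 99.0% of 2-fold changes and 11 of 13537 unchanged genes were called. The simulation gave every gene and group the same dispersion and changed no gene of low mean level. It therefore does not cover the unequal spread of the groups or low genes such as ACTBL2. A permutation of 2 against 2 libraries cannot go below an exact two-sided p of 0.333 and was not used.

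Deviations of same-numbered replicates correlated at 0.107 to 0.541 in the 6 pairs of groups, so the numbers may pair the samples. The main fit had no block, so its p-values and counts ignore any such pairing. A replicate block was an alternative. With it 3441 genes passed for MDA-MB-231 ERK5-ko against parental, beside 2379 in the main fit. For Hs-578T it was 6532 beside 5413. Other alternatives were pseudocounts of 0.1 and 1, no filter, a filter at 1 RPKM, median-ratio scaling, quantile normalization, genes of every type, 1 line alone, an added fold threshold, voom on recovered reads, and leaving out each library. Named genes were the 10 members, the 3 genes most like ACTA2, TAGLN and ACTBL2, per list the 2 lowest and 2 highest log2 fold changes that passed, MAPK7 and MAP2K5. A gene that this rule would name is not reported here. SMTN in Hs-578T, ACTB, ACTG1, MYH11, DES and the overlapping genes were named after their values were seen. Sequences came from GENCODE 29 transcripts and RefSeq promoters. Tables were made with Python 3.11.15 and pandas 2.3.3.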

Additional observations from a re-analysis of the deposited data

Results flagged for a closer look

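The response to the ERK5-ko label differed between the lines in 6 members by the test of the difference itself (MDA-MB-231 minus Hs-578T, log2 scale). The difference was -2.66 for TAGLN, which fell in one line and rose in the other. It was -1.07 for CNN1, with 4 to 10 reads per group in MDA-MB-231. For ACTA2, TPM2 and MYL9 it was -0.91, -0.43 and -0.39. The last 2 were lost with median-ratio scaling and with no filter on low values. It was -1.82 for ACTG2, but its MDA-MB-231 libraries held 1 read or none, so this value depends on the number added before taking logs.

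The response to the MEK5DD label differed in 7 members by the same test. ACTA2 differed by 1.73, having risen in MDA-MB-231 and fallen in Hs-578T. The difference was -2.39 for CNN1, with 4 to 10 reads per group in MDA-MB-231, and -0.74 for ACTBL2, with 3 reads in the MDA-MB-231 MEK5DD libraries. It was -0.74 for MYL9, -0.64 for TPM1, -0.68 for TPM2 and -0.66 for CALD1.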

How the results depend on the processing

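The count of members past the threshold in MDA-MB-231 ERK5-ko against parental was 3 and became 5 with median-ratio scaling and 5 with the replicate block, which gained MYL9 and TPM1. It became 4 with that line fitted alone, which gained MYL9. With a fold above 1.5 or below 0.5 required as well, the count in MDA-MB-231 MEK5DD against parental went from 6 to 1, that of the ERK5-ko difference between lines from 6 to 3 and that of the MEK5DD difference from 7 to 2. ACTBL2 missed that fold in the first of these because 0.5 was added before logs were taken. The ERK5-ko difference between lines had 4 members with median-ratio scaling, no filter, genes of every type or voom. With 1 library left out, where the lone library was assumed to vary like the other groups, counts lay at 3 and 6 throughout for ERK5-ko against parental in MDA-MB-231 and Hs-578T, and between 4 and 5 in both lines for MEK5DD against parental. Beyond the calls given with the genes, the replicate block gained no call and lost none among the members. Of 1254 alternative values for 86 single-gene results, 1159 kept their direction and side of the threshold, 44 lost the call, 22 gained one and 29 changed sign, all 29 from results that had not passed. Signs changed with median-ratio scaling for TPM4 in MDA-MB-231 ERK5-ko (0.055), MYL9 in Hs-578T MEK5DD (0.030), CALD1 in Hs-578T ERK5-ko against MEK5DD (-0.029) and the ERK5-ko line difference of CALD1 (0.022). Quantile normalization changed TPM4 in Hs-578T ERK5-ko (0.12) and its line differences for ERK5-ko (-0.34) and MEK5DD (-0.0082). A pseudocount of 0.1 and voom gave ERK5-ko line differences of ACTBL2 of 0.33 and 0.51 and MEK5DD line differences of ACTG2 of 0.29 and 1.41. With 1 library left out, values ran from -0.33 to 0.015 for TPM2 and -0.069 to 0.045 for TPM4 in MDA-MB-231 ERK5-ko, and from -0.0051 to 0.16 for TPM1 in MDA-MB-231 MEK5DD. In Hs-578T MEK5DD they ran from -0.061 to 0.22 for ACTBL2, -0.18 to 0.055 for MYL9, -0.0066 to 0.15 for TPM2 and -0.077 to 0.39 for CALD1, and from -0.14 to 0.32 for CALD1 in Hs-578T ERK5-ko against MEK5DD. ERK5-ko line differences ran from -0.16 to 0.13 for ACTBL2, -0.0092 to 0.19 for TPM4 and -0.23 to 0.087 for CALD1, and the MEK5DD line difference of ACTG2 from -0.53 to 0.11. The cause was not tested. Depth limits ACTG2, CNN1 and ACTBL2 in MDA-MB-231, where groups held 0 to 48 reads outside ERK5-ko.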
